A study of Mus musculus with 12 samples.

Results

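The enzymes of mitochondrial fatty acid oxidation were followed here through 10 genes: Cpt1a, Slc25a20, Cpt2, Acadvl, Acadl, Acadm, Acads, Etfdh, Hadha and Hadhb. These are 10 of the 45777 genes in the deposited table, taken by symbol, and all 10 passed the filter on low counts. They were selected on measured levels across these same groups, so their own levels and changes are given as a description. Where the rule that calls a gene over the whole table is named for them, it states where they fall and is no evidence.

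The study asked how heat-killed Lactobacillus acidophilus, a lactic acid bacterium, and FK506 (tacrolimus, an inhibitor of the phosphatase calcineurin), alone and together, alter mRNA in activated T cells. CD4+ T cells from the spleen of wild type Balb/c mice aged 7 weeks, as the labels give them, were cultured for 3 days with 0.5 ug/mL antibody to CD3, a stimulus of the T-cell receptor. All 12 libraries carry this stimulus: 3 had anti-CD3 alone, 3 had L. acidophilus added, 3 had FK506 added and 3 had both (the combination). The methods name B6 mice of another age, and doses of L. acidophilus and FK506 are not given for the sequenced cells. Unstimulated cells were not analysed here. The sources used here do not say whether libraries of a group came from separate animals or cultures, so errors and p-values measure the spread between these libraries, which may be technical.

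Long-chain fatty acids are burned in the mitochondrial matrix, but their CoA esters cannot cross the inner membrane. CPT1 on the outer membrane moves the acyl group onto carnitine, the translocase encoded by Slc25a20 carries acylcarnitine inward, and CPT2 puts the acyl group back onto CoA. In the matrix, acyl-CoA dehydrogenases of overlapping chain length preference start each round of shortening, the trifunctional protein completes it for long chains, and the electrons pass through the electron transfer flavoprotein (ETF) and ETF dehydrogenase to ubiquinone. Resting, memory and regulatory T cells are known for using this pathway, whereas dividing effector T cells rely more on glycolysis and make fatty acids. Malonyl-CoA, the building block of that synthesis, inhibits CPT1.

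Promoter sequence is shown for the carnitine palmitoyltransferase genes, which had the highest and the lowest fitted change of the 10 genes in the combination against anti-CD3 alone, and for the stretch between Hadha and Hadhb, whose mRNA ratio differed between groups although the genes start next to each other. The sequences are from RefSeq (GRCm38.p6), cut from windows of 250 bases before to 50 bases after a start and limited to bases outside annotated exons. They read 5′ to 3′ on the strand of the gene (for the shared stretch, that of Hadhb). Capitals mark matches on either strand to GGGCGG (a GC box), AGGTCA (the nuclear receptor motif) or CCGGAAG (an ETS motif). The start used for Cpt1a lies inside the span annotated for the gene.
Cpt1a, chr19:3323051-3323284, plus strand: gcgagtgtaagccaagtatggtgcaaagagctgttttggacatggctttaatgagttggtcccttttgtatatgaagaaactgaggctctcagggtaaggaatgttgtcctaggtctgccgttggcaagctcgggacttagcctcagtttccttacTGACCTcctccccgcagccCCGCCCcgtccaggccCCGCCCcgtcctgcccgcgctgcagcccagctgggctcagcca
Cpt2, chr4:107923611-107923839, minus strand: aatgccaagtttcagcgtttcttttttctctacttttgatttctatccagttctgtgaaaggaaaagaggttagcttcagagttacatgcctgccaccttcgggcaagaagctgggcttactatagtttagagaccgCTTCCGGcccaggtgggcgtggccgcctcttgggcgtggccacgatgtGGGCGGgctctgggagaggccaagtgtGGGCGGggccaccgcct
Hadha to Hadhb, chr5:30155163-30155247, plus strand: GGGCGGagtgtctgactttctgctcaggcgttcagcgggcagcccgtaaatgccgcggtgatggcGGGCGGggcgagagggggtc

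In the whole windows, GGGCGG was found in 8 of the 10 genes (all but Acadm and Acadvl), against 35.7% of 32851 promoters of the same length. The windows of Hadha and Hadhb share 228 of their 300 bases, so these 2 genes are not separate matches. AGGTCA was found in Acadm, Acadvl and Cpt1a, against 16.3% of all promoters. CCAAT (the CCAAT box) matched in Cpt1a and Etfdh against 37.4%, GCATGCGC (the NRF1 core) in Acadm and Etfdh against 2.71%, and CCGGAAG in Cpt2 and Slc25a20 against 8.86%. The letters TCAAGGTCA (the estrogen-related receptor motif; 0.423% of promoters), TATAAA (the TATA box; 13.6%) and a direct repeat of AGGTCA with 1 base between (the PPAR motif in its strict form; 0.0396%) were in none of the 10 windows; the first and last of these contain AGGTCA. Both strands were searched, and a match here is a description of letters. The median GC content of the windows was 59.7% for the 10 genes and 52.7% for all promoters.

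The deposited values of a gene in a library are its read count, its FPKM (fragments scaled to transcript length and library size) and its TPM. Library totals ran from 45416397 to 64658165 counts, and the 10 genes had between 724 and 11568 counts in a library. Levels below are FPKM. Fold changes come from the counts, by edgeR after TMM scaling, with 1 mean per group over all 12 libraries. The call rule was a Benjamini-Hochberg adjusted p under 0.05 over 23585 genes. Shares of all genes set beside counts of genes are from this fit, and none was taken under other settings. The scaling matters for small differences. Over 13533 genes of mean count 50 or more, each gene's log2 difference between the combination and anti-CD3 alone was compared with that after TMM. The median shift was upward: 0.21 with plain library totals, 0.20 on FPKM, 0.10 on quantile-normalized FPKM, 0.04 with DESeq2 and 0.36 on TPM. FPKM levels therefore read higher for the combination than the fitted changes do.

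T-cell markers were high throughout. The sum of 6 genes was 963 to 1304 FPKM with anti-CD3 alone and 1447 to 1682 with the combination, above every other library. In that comparison 3 of the 6 rose by edgeR, where 21.5% of all genes rose and 21.8% fell, shares that also stand beside the marker counts that follow. Cd8a and Cd8b1 together stayed at or below 9.02 FPKM. Markers of T-cell states moved too. The sum of 8 naive and memory markers was 170 to 338 FPKM with anti-CD3 alone and 578 to 874 with the combination, where 4 rose and 1 fell. Of 7 regulatory T-cell markers 5 rose and 1 fell, Foxp3 by 4.11 (SE 0.44), from 4.45, 4.73 and 6.20 FPKM to 108, 95.7 and 101, although their sum overlapped between these groups (510 to 662 and 600 to 644). The methods describe CD4+ T cells as selected with magnetic beads coated for CD4, and markers of other cells still moved with the treatments. The sum of 8 B cell markers was 38.9 to 63.6 FPKM with anti-CD3 alone, 26.1 to 37.7 in L. acidophilus libraries, 235 to 476 with FK506 and 136 to 163 with the combination, and none of the 8 was at 0 in every library of a group. The sum of 9 myeloid markers was 2.45 to 4.02 FPKM, 3.74 to 7.56, 6.17 to 19.2 and 45.7 to 72.3 in the same order, with S100a8 at 0 in all groups, S100a9 at 0 in all but the combination and Csf1r at 0 with anti-CD3 alone. The sum of 3 NK cell markers went from between 81.1 and 132 FPKM without FK506 to between 7.77 and 19.4 with it, nearly all of it Nkg7. The other NK markers went the opposite way at low levels: Klrb1c was at 0 with anti-CD3 alone and at 0.190 to 0.322 FPKM with the combination, and Ncr1 went from at most 0.0295 to at most 0.873 FPKM. The part of these cells and cell states in the levels below was not tested, and in such bulk samples fewer cells of a type and less RNA per cell cannot be told apart.

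On the FPKM scale, which is per length, the 12-library mean placed the 10 genes from Hadha at 52.7, Hadhb at 41.4, Acadl at 38.2 and Acadvl at 37.2, through Cpt1a at 23.1, Acadm at 19.3, Etfdh at 19.3, Acads at 18.4 and Slc25a20 at 16.0, to Cpt2 at 7.79. The ranges over libraries of neighbours in this order overlapped, except those of Slc25a20 and Cpt2. The ratio of the highest to the lowest group mean was 2.81 for Cpt1a and between 1.10 (Hadha) and 1.68 (Acads) for the other genes. Together the 10 genes took 0.0675% to 0.0733% of the counts with anti-CD3 alone, 0.0691% to 0.0744% in L. acidophilus libraries, 0.0667% to 0.0719% with FK506 and 0.0780% to 0.0863% with the combination. Without Cpt1a, the other 9 genes took 0.0605% to 0.0657% with anti-CD3 alone and 0.0621% to 0.0654% with the combination, which overlap.

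**Figure D1:**
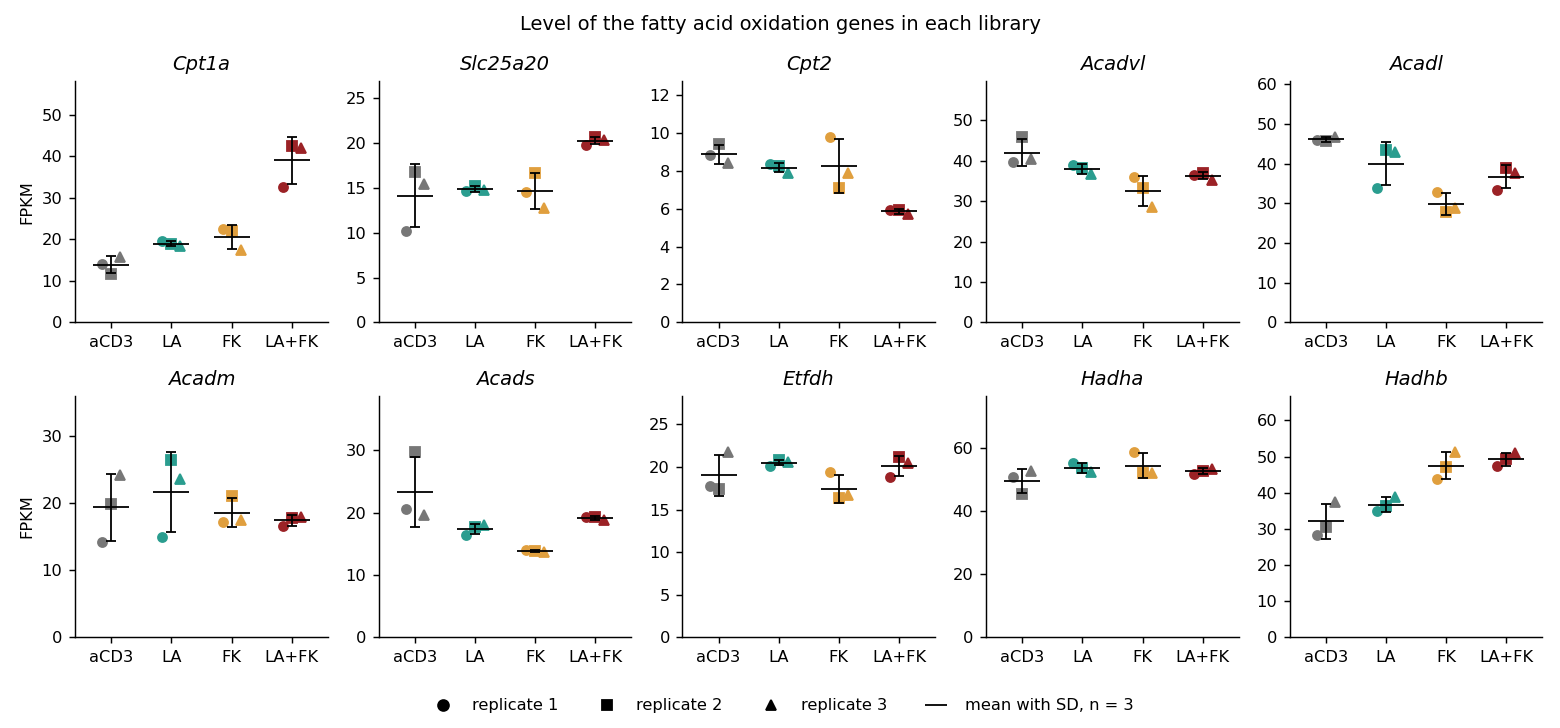
FPKM of each of the 10 genes (vertical axes, starting at 0) in the 12 libraries, by group (aCD3, anti-CD3 alone; LA, L. acidophilus; FK, FK506; LA+FK, the combination); symbols are libraries and black bars the mean and SD of 3. Cpt1a stood at 32.5 to 42.5 in the combination, above all other libraries, and Cpt2 at 5.72 to 5.94, below all others.

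Cpt1a (chr19:3322326-3385735, plus strand), the gate of the pathway and its malonyl-CoA-sensitive step, had 14.1, 11.8 and 15.8 FPKM in the libraries with anti-CD3 alone. It had 19.5, 18.9 and 18.5 with L. acidophilus, 22.4, 22.0 and 17.3 with FK506, and 32.5, 42.5 and 42.1 with the combination. Every library with a treatment was above every library with anti-CD3 alone, the single treatments overlapped each other, and the combination was above both. The fitted log2 change against anti-CD3 alone was 0.37 (SE 0.12) with L. acidophilus, 0.45 (SE 0.12) with FK506 and 1.28 (SE 0.12), or 2.44-fold, with the combination. Leaving out any 1 library moved the last value between 1.20 and 1.38. The combination was also 0.83 (SE 0.12) above FK506 and 0.91 (SE 0.12) above L. acidophilus. The difference between the combination's change and the added changes of the single treatments (the departure) was 0.46 (SE 0.17), which did not meet the call rule.

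Slc25a20 (chr9:108662136-108684642, plus strand), the carnitine-acylcarnitine translocase, had 10.2, 16.8 and 15.5 FPKM with anti-CD3 alone and 14.7, 15.2 and 14.8 with L. acidophilus. It had 14.5, 16.7 and 12.8 with FK506 and 19.8, 20.7 and 20.4 with the combination. The combination lay above all other libraries on this scale, while the other 3 groups overlapped. Its fitted change, 0.32 (SE 0.16), did not meet the call rule after TMM scaling and did so on library totals (0.53), FPKM (0.52), quantile-normalized FPKM (0.46) and TPM (0.70). Anti-CD3 replicate 1 held the lowest value, and the fitted change was 0.14 without it. Without anti-CD3 replicate 2 the change was 0.49, the 1 of 12 fits leaving out a library that met the call rule.

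Cpt2 (chr4:107903982-107923589, minus strand), which completes the carnitine shuttle, went the opposite way. It had 8.84, 9.41 and 8.41 FPKM with anti-CD3 alone, 8.37, 8.28 and 7.88 with L. acidophilus, 9.80, 7.07 and 7.89 with FK506, and 5.93, 5.94 and 5.72 with the combination. All 3 libraries of the combination were below the other 9, which mixed with each other apart from L. acidophilus lying just under anti-CD3 alone. The fitted log2 change was -0.20 (SE 0.13) with L. acidophilus, -0.22 (SE 0.13) with FK506 and -0.81 (SE 0.13) with the combination. Under 6 settings that change the scaling, 3 of them also the test to limma, the change in the combination ran from -0.81 (TMM) to -0.41 (TPM) and was negative in each.

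Because both genes are read in the same library, their ratio does not depend on a factor applied to the whole library, as TMM factors and library totals are. The Cpt1a to Cpt2 ratio of FPKM was 1.60, 1.25 and 1.88 with anti-CD3 alone, 2.33, 2.29 and 2.35 with L. acidophilus, 2.29, 3.12 and 2.20 with FK506, and 5.48, 7.16 and 7.36 with the combination. The means were 1.58 ± 0.318, 2.32 ± 0.0314, 2.53 ± 0.506 and 6.67 ± 1.03 (SD, n = 3). The combination stood apart from the 9 other libraries. The Slc25a20 to Cpt2 ratio was 1.15 to 1.84 with anti-CD3 alone, 1.75 to 1.88 in L. acidophilus libraries, 1.48 to 2.36 with FK506 and 3.34 to 3.57 with the combination. These ratios were chosen after the values were seen and are a description.

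**Figure D2:**
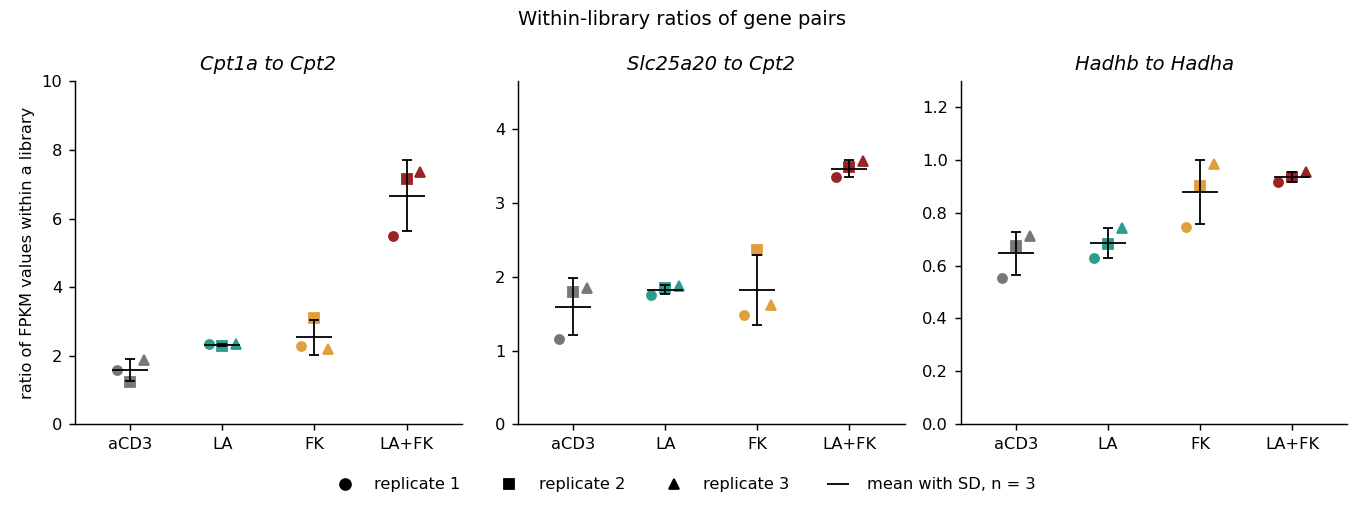
Ratio of 2 FPKM values within a library (vertical axes, starting at 0) for Cpt1a to Cpt2, Slc25a20 to Cpt2 and Hadhb to Hadha, by group; symbols are libraries and black bars the mean and SD of 3. In the first 2 panels the combination lies above every other library; in the third the libraries with FK506 lie above those without, at 0.745 to 0.983 against 0.555 to 0.742.

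The acyl-CoA dehydrogenases take the first electrons off the acyl chain. Acadl (chr1:66830839-66863309, minus strand), the long-chain enzyme, had 46.0, 45.6 and 46.8 FPKM with anti-CD3 alone, 33.9, 43.3 and 42.9 with L. acidophilus, 32.9, 27.8 and 28.9 with FK506, and 33.4, 39.0 and 37.5 with the combination. The FK506 libraries were the lowest, all 3 treatments lay below anti-CD3 alone, and the combination was above FK506. The fitted log2 change was -0.29 (SE 0.11) with L. acidophilus, -0.74 (SE 0.11) with FK506 and -0.54 (SE 0.11) with the combination. The last value was -0.22 on quantile-normalized FPKM and -0.17 on TPM, and did not meet the call rule on either.

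Acadvl (chr11:70010183-70015428, minus strand), the very-long-chain enzyme, had 39.8, 46.0 and 40.4 FPKM with anti-CD3 alone, 39.1, 38.2 and 36.6 with L. acidophilus, 36.0, 33.2 and 28.7 with FK506, and 36.4, 37.1 and 35.3 with the combination. Each treatment lay under anti-CD3 alone and the combination overlapped both single treatments. The fitted change was -0.49 (SE 0.10) with FK506 and -0.42 (SE 0.10) with the combination, and the latter was -0.21 on library totals and on FPKM, -0.10 on quantile-normalized FPKM and -0.04 on TPM, and did not meet the call rule on these 4.

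Acads (chr5:115110299-115119346, minus strand), the short-chain enzyme, had 20.6, 29.8 and 19.6 FPKM with anti-CD3 alone, where replicate 2 was far above the other two. It had 16.5, 17.7 and 18.0 with L. acidophilus, 14.0, 13.9 and 13.7 with FK506, and 19.3, 19.3 and 18.8 with the combination. FK506 was the lowest group and did not overlap any other. The combination was above both single treatments and just below anti-CD3 alone. The fitted change was -0.51 (SE 0.15) with L. acidophilus, -0.87 (SE 0.15) with FK506 and -0.50 (SE 0.15) with the combination. Without anti-CD3 replicate 2 the values with L. acidophilus and with the combination were -0.27 and -0.26. The change in the combination did not meet the call rule without its replicate 2 or 3, on library totals (-0.28), FPKM (-0.25), quantile-normalized FPKM (-0.27) or TPM (-0.09). The departure from the sum of the single changes was 0.89 (SE 0.22), the highest of the 10 genes, and was 0.65 without anti-CD3 replicate 2.

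Acadm (chr3:153922353-153944643, minus strand), the medium-chain enzyme and the one measured least evenly, had 14.2, 19.9 and 24.2 FPKM with anti-CD3 alone and 15.0, 26.5 and 23.7 with L. acidophilus. It had 17.2, 21.1 and 17.5 with FK506 and 16.6, 17.8 and 18.0 with the combination. All 4 groups overlapped, and the lowest value of each group was that of replicate 1. The fitted change in the combination was -0.35 (SE 0.20), and 0.04 on TPM.

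Etfdh (chr3:79603788-79628767, minus strand), ETF dehydrogenase, passes the electrons of all 4 of these enzymes to ubiquinone. It had 17.8, 17.4 and 21.8 FPKM with anti-CD3 alone, 20.1, 20.8 and 20.6 with L. acidophilus, 19.4, 16.3 and 16.7 with FK506, and 18.9, 21.2 and 20.4 with the combination. L. acidophilus was above FK506 in every library and the other groups overlapped. The fitted change was -0.23 (SE 0.10) with FK506 and -0.12 (SE 0.10) with the combination, the latter being 0.09 on FPKM and 0.25 on TPM.

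Hadha and Hadhb encode the alpha and beta chains of the mitochondrial trifunctional protein, which carries the hydratase and 3-hydroxyacyl-CoA dehydrogenase activities on alpha and the thiolase on beta. Hadha (chr5:30119423-30154980, minus strand) and Hadhb (chr5:30155253-30184593, plus strand) are transcribed away from each other, with 272 bases between their starts, and the stretch printed above lies between them. Hadha had 50.9, 45.5 and 52.7 FPKM with anti-CD3 alone, 55.4, 53.6 and 52.4 with L. acidophilus, 59.0, 52.2 and 52.3 with FK506, and 51.8, 52.8 and 53.6 with the combination. All 4 groups overlapped, and the fitted change in the combination was -0.12 (SE 0.08), or 0.09 on FPKM. Hadhb had 28.2, 30.6 and 37.5 FPKM with anti-CD3 alone, 34.9, 36.4 and 38.8 with L. acidophilus, 43.9, 47.0 and 51.4 with FK506, and 47.3, 49.3 and 51.1 with the combination. All 6 libraries with FK506 were above the 6 without. The fitted change of Hadhb was 0.48 (SE 0.10) with FK506 and 0.42 (SE 0.10) with the combination, against 0.02 (SE 0.08) and -0.12 (SE 0.08) for Hadha. Within a library the Hadhb to Hadha ratio was 0.555 to 0.711 with anti-CD3 alone, 0.629 to 0.742 in L. acidophilus libraries, 0.745 to 0.983 with FK506 and 0.914 to 0.953 with the combination.

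**Figure D3:**
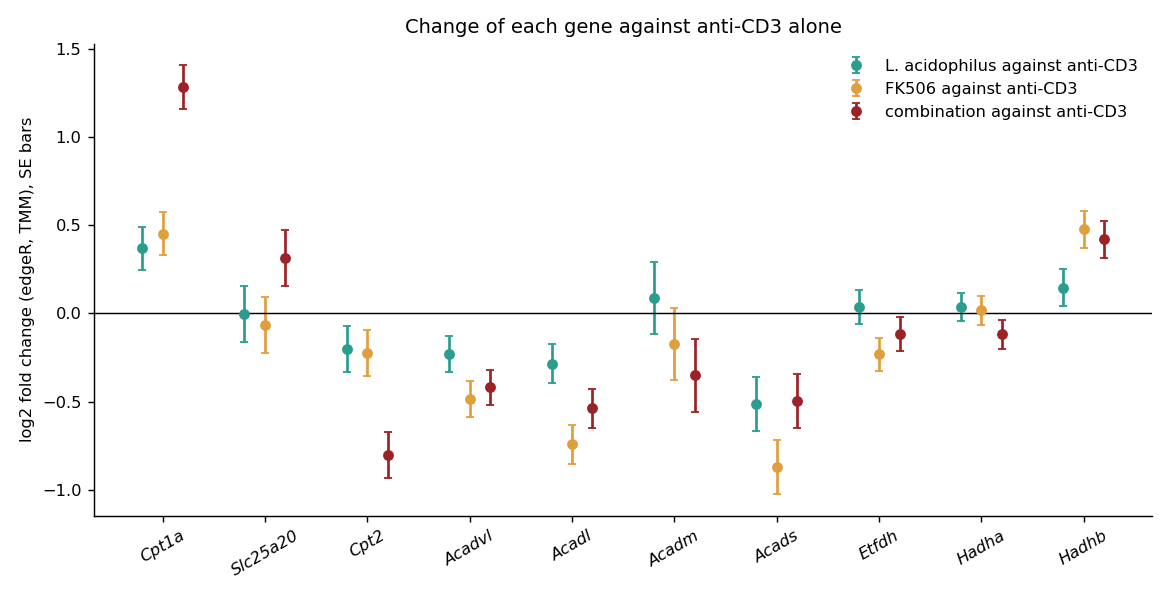
Fitted log2 fold change of each gene against anti-CD3 alone (vertical axis; edgeR on counts after TMM scaling, bars are the SE) for L. acidophilus, FK506 and the combination, which share the 3 anti-CD3 libraries. Cpt1a is highest at 1.28 and Cpt2 lowest at -0.81 in the combination, while Acads and Acadl are lowest with FK506, at -0.87 and -0.74; several smaller values change sign with the scaling.

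Counted by the call rule, the combination against anti-CD3 alone had 2 of the 10 genes higher (Cpt1a, Hadhb), beside 21.5% of all genes tested, and 4 lower (Acadl, Acadvl, Acads, Cpt2), beside 21.8%. FK506 against anti-CD3 alone had 2 higher (Cpt1a, Hadhb) beside 10.2% and 3 lower (Acadl, Acadvl, Acads) beside 8.81%, and Cpt1a did not meet the rule without anti-CD3 replicate 2 (0.36) or without FK506 replicate 1 or 2. L. acidophilus against anti-CD3 alone had 0 higher beside 0.178% and 0 lower beside 0.0509% by edgeR, with 1 higher and 3 lower at an unadjusted p under 0.05, and 0 higher and 1 lower by DESeq2. The combination had Cpt1a higher and Cpt2 lower against FK506 (8.18% and 10.9% of all genes) and likewise against L. acidophilus (16.6% and 17%). The departure from the sum had 1 higher (Acads) and 0 lower, beside 1.35% and 3% of all genes, with 3 higher and 0 lower at an unadjusted p under 0.05 and 2 higher by DESeq2. Since the genes were picked on these groups, nothing is read from these counts. The comparisons with anti-CD3 alone share its 3 libraries.

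The median log2 change of the 10 genes was -0.24 in the combination, -0.20 with FK506 and 0.02 with L. acidophilus, against 0.02, -0.0017 and -0.0048 over all genes tested. The first value was -0.03 on library totals, -0.02 on FPKM and 0.15 on TPM. These settings moved the median of other genes too: over 13533 genes of mean count 50 or more, the median was -0.08 after TMM and 0.13, 0.09 and 0.25 in the same order, so the median of the 10 genes lay below it each time. The settings on FPKM and TPM use limma in place of edgeR, so they change the test as well as the scaling. Across the settings, the split of the 10 genes in the combination against anti-CD3 alone went from 2 higher and 4 lower after TMM to 3 and 2 on library totals or FPKM and to 3 and 1 on quantile-normalized FPKM or TPM. Against FK506 it went from 1 higher and 1 lower to 5 and 1 on quantile-normalized FPKM, and against L. acidophilus from 1 and 1 to 3 and 1 on TPM. Cpt1a and Hadhb were higher and Cpt2 lower than anti-CD3 alone in the combination under all 6 settings (TMM, library totals, DESeq2, FPKM, quantile-normalized FPKM and TPM), and under the same 6 Acadl, Acadvl and Acads were lower and Cpt1a and Hadhb higher with FK506.

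**Figure D4:**
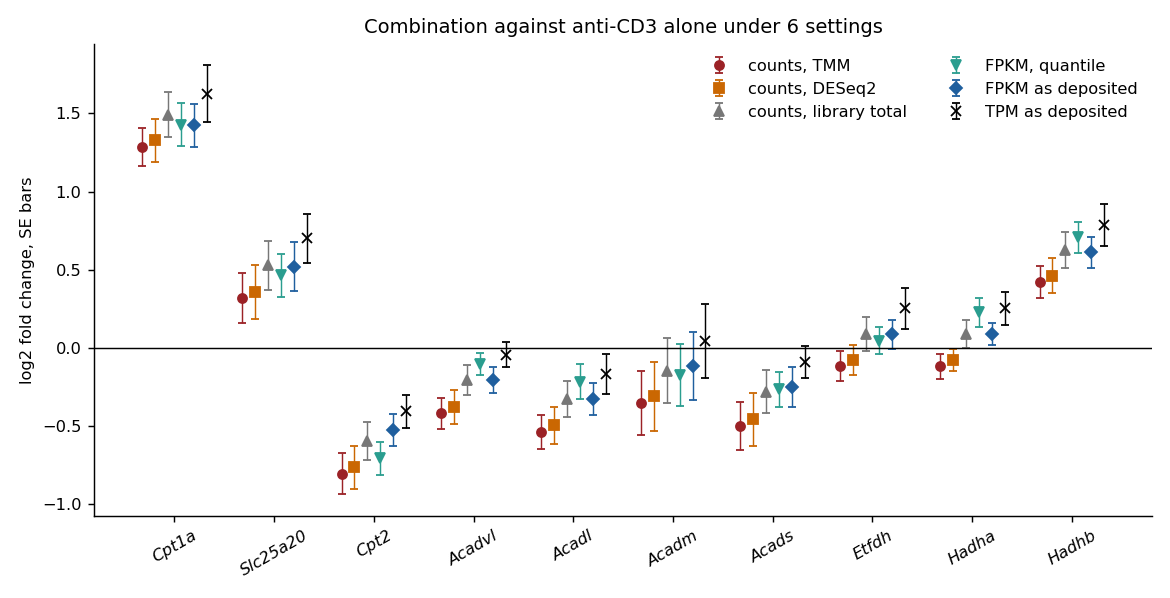
Log2 fold change of each gene in the combination against anti-CD3 alone (vertical axis, bars are the SE) under 6 settings, of which FPKM, quantile-normalized FPKM and TPM use limma and DESeq2 its own test. Cpt1a, Slc25a20 and Hadhb lie above 0 and Cpt2, Acadvl, Acadl and Acads below 0 in all 6, whereas Etfdh, Hadha and Acadm change sign; Cpt1a runs from 1.28 to 1.62.

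The genes outside the 10 whose log2(FPKM + 1) followed the mean standardized profile of the 10 most closely over the 12 libraries were Plek (Pearson r = 0.91), Xdh (0.91), Lamp2 (0.88), Coq10b (0.87) and Unc119b (0.87). The libraries share their scaling and their 4 groups, so these values are descriptions. Of the 10 genes, Etfdh had the highest r with that mean (0.86), and Cpt2 (-0.19) the lowest.

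Another 25 genes of mitochondrial fatty acid oxidation, all tested, were taken as a wider list. In the combination against anti-CD3 alone, 3 rose and 11 fell, beside 21.5% and 21.8% of all genes tested, with a median of -0.28 against 0.02 over all genes; the split was 4 and 5 on TPM and 3 and 6 on FPKM. Those that rose were Acot2 (0.91, SE 0.20), a matrix thioesterase, Acsl1 (0.77, SE 0.15), which activates fatty acids on the outer membrane, and Slc22a5 (0.75, SE 0.17), the carnitine importer of the plasma membrane. Acsl1 went from 2.61, 2.29 and 2.68 FPKM to 5.21, 4.82 and 4.72, and the edgeR adjusted p was 0.00139. The largest falls among genes of at least 1 FPKM were those of Hsd17b10 (-1.91, SE 0.19), a dehydrogenase of branched and short chains that is also a subunit of mitochondrial RNase P, Acsl3 (-1.62, SE 0.17), an acyl-CoA synthetase of lipid droplets and endoplasmic reticulum, Etfb (-1.29, SE 0.14), the beta chain of ETF, and Acsl4 (-0.77, SE 0.19), the arachidonate-preferring synthetase. Acsl4 did not pass on FPKM, quantile-normalized FPKM or TPM, while the other three passed in every fit run.

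Etfb, the electron carrier that serves Acadl, Acadm, Acads and Acadvl, had 59.2, 81.5 and 58.6 FPKM with anti-CD3 alone, 51.6, 53.7 and 50.5 with L. acidophilus, 43.7, 38.9 and 37.5 with FK506, and 32.3, 33.0 and 28.7 with the combination. Its groups did not overlap. The edgeR adjusted p was 3.95e-05 for the combination and 0.00202 for FK506. Its partner Etfa had 45.1, 35.1 and 44.3 FPKM with anti-CD3 alone and 31.5, 34.3 and 34.2 with the combination, a log2 change of -0.52 that did not pass on TPM. The ratio of Etfb to the acceptor Etfdh within a library went from 2.69 to 4.68 with anti-CD3 alone to 2.46 to 2.58 in L. acidophilus libraries, 2.24 to 2.38 with FK506 and 1.41 to 1.71 with the combination.

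FK506 alone gave 1 rise (Acsl1, 0.50) and 10 falls on this list, beside 10.2% and 8.81% of all genes, with 4 and 7 on TPM. Acsl1 lost its call without anti-CD3 replicate 2 or 3, FK506 replicate 1 or 2 or replicate 2 of the combination, and on quantile-normalized FPKM, and without FK506 replicate 2 the falls were 6. L. acidophilus alone gave 0 and 0 by edgeR, beside 0.178% and 0.0509%, with 1 rise and 4 falls at an unadjusted p under 0.05 and 0 and 1 by DESeq2. Added to FK506, L. acidophilus gave 1 rise and 3 falls (Acsl3, Etfa, Etfb), beside 8.18% and 10.9% of all genes, and 4 and 1 on TPM. The rise was that of Decr1 (0.58), the dienoyl-CoA reductase needed for unsaturated chains, which was at 4.10, 3.89 and 3.38 FPKM with FK506 and 5.26, 6.25 and 6.56 with the combination. Its call was lost without FK506 replicate 3 or without replicate 2 or 3 of the combination. Against L. acidophilus alone, the combination gave 3 rises and 7 falls, beside 16.6% and 17% of all genes, and 5 and 5 on TPM.

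Of the other dehydrogenases that hand electrons to ETF, 5 of 6 were tested, of which 1 rose and 1 fell, beside 21.5% and 21.8% of all genes (2 and 0 on library totals, FPKM or TPM). In the combination against anti-CD3 alone Acadsb, which acts on short branched chains, rose by 0.53 (SE 0.15) and Ivd, of leucine breakdown, fell by 0.40 (SE 0.09) after TMM scaling but did not pass on library totals, FPKM or TPM. Peroxisomal oxidation, which shortens very long and branched chains outside mitochondria, had 5 rises and 3 falls among 18 genes tested of 19. Beside these stand the same 21.5% and 21.8% of all genes after TMM scaling. On TPM the split was 9 and 3, with no share of all genes taken there. Phyh, the alpha-oxidation hydroxylase, rose by 1.05 (SE 0.11) from 12.8, 13.0 and 14.2 FPKM to 34.9, 29.7 and 30.8. Acox3, a branched-chain acyl-CoA oxidase, rose by 0.98 (SE 0.12). The falls were those of Pecr (-1.25, SE 0.23), Amacr (-1.14, SE 0.18) and Ech1 (-1.05, SE 0.16).

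Genes that regulate the pathway gave 6 rises and 3 falls among 27 tested of 28 after TMM scaling. These rises are near the 21.5% of all genes that rose, and the falls are under the 21.8% that fell. On TPM the split was 13 and 1, with no share of all genes taken there. Ppara, the nuclear receptor that drives these genes in liver, was at or below 0.0162 FPKM in every library, whereas Ppard was between 8.04 and 12.9 FPKM, with a log2 change of -0.30 (SE 0.14) in the combination that did not pass. Rxra, their dimer partner, rose by 1.46 (SE 0.33) in the combination and by 2.46 (SE 0.34) with FK506, to 22.0, 25.1 and 23.6 FPKM from 5.51, 3.33 and 2.85. Nrip1, a corepressor of nuclear receptors, rose by 1.45 (SE 0.17). Sirt3, the mitochondrial deacetylase that acts on Acadl, fell by 0.78 (SE 0.15). Esrra (-0.35, SE 0.13) and Tfam (-0.28, SE 0.10) were lower after TMM scaling but above 0 on TPM. Falls on this list were 3 by DESeq2 and 1 on library totals, FPKM, quantile-normalized FPKM or TPM. Sirt1 rose by 0.43 (SE 0.12) and Prkab2, a subunit of the AMP-activated kinase, by 0.71 (SE 0.19).

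After TMM scaling, other PPAR targets gave 2 rises and 1 fall among 7 tested of 10, beside 21.5% and 21.8% of all genes. Genes of fatty acid supply gave 5 and 5 among 17 tested of 18, beside the same shares. On TPM the splits were 4 and 0 for the targets and 7 and 3 for supply, with no share of all genes taken there. Cd36, a fatty acid uptake receptor, rose by 5.31 (SE 0.48), from 0.0824, 0.0440 and 0.0839 FPKM to 2.14, 3.65 and 4.34. Lpl, lipoprotein lipase, rose by 4.62 (SE 0.44), to 4.30, 4.11 and 4.45 FPKM, and Lipa, the lysosomal acid lipase, by 1.54 (SE 0.18). Mgll, monoacylglycerol lipase, fell by 2.51 (SE 0.25) and Fabp5, a fatty acid carrier, by 1.66 (SE 0.22). Myeloid cells also express Cd36, Lpl and Lipa, and the summed myeloid markers were highest in the same group, at 45.7 to 72.3 FPKM; their part in these rises was not tested.

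Fatty acid synthesis is the opposing pathway. Of 9 genes of malonyl-CoA and fatty acid synthesis, 8 fell and 1 rose in the combination under all 6 settings, beside 21.8% and 21.5% of all genes after TMM, with a median log2 change of -1.38. Acaca, which makes the malonyl-CoA used for synthesis, was at 15.0, 10.7 and 15.8 FPKM with anti-CD3 alone, 13.6, 13.4 and 14.2 with L. acidophilus, 9.28, 7.80 and 11.4 with FK506, and 4.07, 5.15 and 5.28 with the combination, a fall of 1.73 (SE 0.17) with an edgeR adjusted p of 2.05e-05. The gene that rose was Acacb, whose product sits at the mitochondrial outer membrane and makes malonyl-CoA beside CPT1; it stayed low, at 0.862, 1.11 and 1.00 FPKM against 0.562, 0.240 and 0.437, and is named after its values were seen. Scd2 (-4.11, SE 0.42), Scd1 (-3.61, SE 0.35) and Fasn (-1.50, SE 0.14) fell as well.

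Downstream of the pathway, the citric acid cycle burns the acetyl-CoA. Of its 18 genes, 16 fell and 0 rose in the combination, beside 21.8% and 21.5% of all genes after TMM scaling, with a median of -0.75. The split was 11 and 0 on TPM and 12 and 1 on quantile-normalized FPKM. Suclg1, the alpha subunit of succinyl-CoA ligase, went from 107, 170 and 125 FPKM to 42.4, 39.4 and 35.0, a fall of 1.99 (SE 0.19). FK506 alone gave 5 falls and 0 rises in this list by edgeR, beside 8.81% and 10.2% of all genes. The counts were 7 and 0 by DESeq2, 3 and 1 on library totals or FPKM, and 2 and 1 on quantile-normalized FPKM or TPM. Of 4 ketone body genes, Bdh1 (-1.17, SE 0.11) and Acat1 (-0.96, SE 0.15) fell and 0 rose (1 on TPM or quantile-normalized FPKM). All these lists were compiled with earlier results of these data known.

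**Figure D5:**
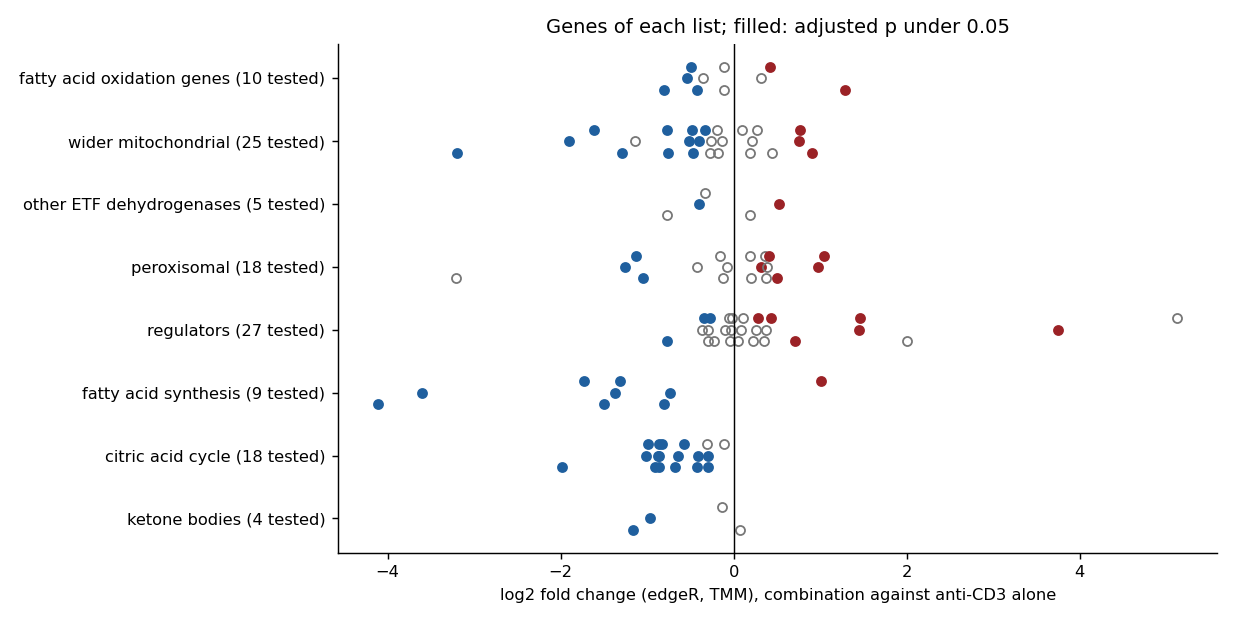
Log2 fold change of each tested gene (horizontal axis; edgeR on counts after TMM scaling) in the combination against anti-CD3 alone, by list; filled points passed an adjusted p under 0.05 (red higher, blue lower) and open points did not. The 10 oxidation genes and the wider list lie on both sides of 0, with 2 and 3 filled higher and 4 and 11 filled lower after TMM scaling, while 8 of 9 synthesis genes and 16 of 18 citric acid cycle genes are filled lower.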

How the data were processed

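RNA of mouse CD4+ T cells was sequenced in 12 libraries, 3 per group, grouped by the treatment given in the labels. The submitters' processing notes name bcl2fastq 2.20.0, Trimmomatic, HISAT2 2.1.0, StringTie 2.1.3b and mm10 (GRCm38). The read counts were deposited by the authors as whole numbers per gene and may be rounded estimates. FPKM, as the authors deposited it, is scaled to transcript length and library, and shows no sign of the quantile normalization that the methods mention. The TPM values deposited by the authors served as an alternative.

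Counts of 23585 genes above 0 in at least 3 libraries were fitted with edgeR 4.0.16 in R 4.3.3 (quasi-likelihood test, TMM factors from 0.893 to 1.10, Benjamini-Hochberg adjustment, threshold 0.05, no fold minimum). The departure is the combination minus FK506, less L. acidophilus minus anti-CD3 alone. SE is the log2 change over the square root of F. Alternatives were DESeq2 1.42.0, no TMM factors, other filters, limma 3.58.1 on log2 values with a pseudocount, the replicate number as a block, only the groups compared, an at least 2-fold change, and each library left out. Limma on TPM, and replicates 2 and 3 alone, were added after seeing the data. The fit was tested on simulated counts. Libraries of a group differed by more than counting noise (lowest chi-square over degrees of freedom 5.11, for replicates 2 and 3 of the combination). Against replicate 1 these gave 98.8 and 110. Replicates 2 and 3 with L. acidophilus gave 11.1, and 73.7 and 72.7 against replicate 1. Pairs ran from 121 to 246 with anti-CD3 alone and from 56.8 to 76.2 with FK506.

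The 10 genes and all gene lists were chosen with earlier results of these data known. From each list, genes of at least 1 FPKM were named if called with 1 of the 4 largest rises or falls in the combination; any gene of the wider list could be named. Coordinates and promoter sequence are from RefSeq, GRCm38.p6, and all 10 genes matched by symbol. Figures were drawn with matplotlib 3.10.9.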

Additional observations from a re-analysis of the deposited data

Results flagged for a closer look

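Among the 10 genes and the wider list of 25, edgeR's interaction term called 1 gene each higher and 0 lower. Of all genes tested it called 1.35% higher and 3% lower. For these 2 genes, the fitted effect of L. acidophilus with FK506 was higher than without it. The difference met the call rule with all 12 libraries but not in most fits that left out 1. For Acads the difference was 0.89 on the log2 scale: L. acidophilus gave -0.51 without FK506 and 0.37 with it. Since Acads was picked on these groups, the value is a description and the rule is no test of it. It was 0.65 without anti-CD3 replicate 2, which held the highest level of the gene, and met the call rule in 3 of the 12 fits that left out 1 library, those without an anti-CD3 library. For Decr1, the dienoyl-CoA reductase, the difference was 0.85 (SE 0.20), from -0.28 without FK506 to 0.58 with it, with an edgeR adjusted p of 0.0358. With 1 library left out, the value lay between 0.72 and 0.93, and the edgeR adjusted p between 0.0345 and 0.109, under 0.05 in 4 of 12 fits.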

How the results depend on the processing

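Scaling limits what small differences show. For the combination against anti-CD3 alone, the median shift of a gene from its TMM value was 0.21 upward without TMM factors. On TPM it was 0.36 upward, so directions of smaller differences depend on the scaling. For single genes, 8967 alternative values kept their side of the threshold and, where called, their direction, 408 fell short of it, 213 newly passed it and 2 called values changed sign, both on TPM, where Esrra was at 0.0222 and Tfam at 0.0838. Sign changes of values that were not called, such as those of Hadha, Etfdh and Acadm, are not among these 2. A value not called in either fit counts as kept, so the tally gives no rate at which calls were lost. Where values moved, the cause was not tested beyond what an alternative's construction shows.

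The median change of the 10 genes in the combination against anti-CD3 alone was -0.0289 without TMM factors, -0.0152 on FPKM (pseudocount 1), -0.0161 with pseudocount 0.1, -0.0286 on quantile-normalized FPKM and 0.148 on TPM. With FK506 it was -0.0866 without TMM factors, -0.0704 on FPKM, -0.0766 with pseudocount 0.1, 0.0176 on TPM and -0.305 in replicates 2 and 3 alone. With L. acidophilus it was 0.11 with pseudocount 0.1 and 0.15 on TPM. Combination against FK506 gave 0.19 without TMM factors, 0.22 on quantile-normalized FPKM and 0.25 on TPM. Combination against L. acidophilus gave -0.0204 without TMM factors, -0.0275 on FPKM, -0.0284 with pseudocount 0.1, 0.0285 on quantile-normalized FPKM and 0.0925 on TPM. The departure was 0.28 in replicates 2 and 3 alone.

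On the wider list, falls in the combination against anti-CD3 alone were 7 without TMM factors or with pseudocount 0.1, 6 on FPKM and on quantile-normalized FPKM, 5 on TPM and 4 at 2-fold or more, where 0 rose. With FK506, rises were 3 by DESeq2, without TMM factors or with pseudocount 0.1, 2 with edgeR's own filter, on FPKM and with the replicate block, 4 on TPM and 0 on quantile-normalized FPKM, with only the groups compared or at 2-fold, where falls were 3. L. acidophilus gave 1 fall by DESeq2 and by limma on FPKM (either pseudocount), quantile-normalized FPKM and TPM. Combination against FK506 gave 4 rises on TPM, 2 in replicates 2 and 3 alone and 0 at 2-fold, and 1 fall without TMM factors, on TPM and at 2-fold. Against L. acidophilus it gave 5 rises on TPM, and 0 rises and 2 falls at 2-fold. After TMM scaling the departure was higher for 1 of 25 genes and lower for 0, beside 1.35% and 3% of all genes. It was higher for 2 by DESeq2 or on FPKM with either pseudocount, and for 3 on quantile-normalized FPKM. On TPM it was higher for 4, and in replicates 2 and 3 alone or at 2-fold for 0. By DESeq2 it was lower for 2. Counts under other settings in this paragraph have no share of all genes beside them, as none was taken.

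With 1 library left out, FK506 gave 0 to 2 rises and 6 to 10 falls on the wider list, combination against FK506 0 to 1 rises, and the departure 0 to 1 higher and 0 to 1 lower. The median of the 10 genes ran from -0.25 to -0.10 with FK506 and from -0.132 to 0.0344 with L. acidophilus. After each group's mean was subtracted, same-numbered libraries of different groups correlated by 0.20 on average (-0.11 to 0.48). Those of different numbers averaged -0.0955, but the subtraction ties this value to the first, so it is no separate comparison. Of 18 same-number values, 12 were over 0.1, among them all 6 of replicate 1, whose libraries were the deepest of each group. By mean correlation, 8 of 12 libraries were closest to their own number. The labels give no shared source for a number and 6 of the 18 values were not over 0.1, so the numbers were not taken as pairs. With the replicate block the median of the 10 genes in the combination was -0.22, and 2 rises on the wider list with FK506 were the count it moved by over 1.5 times.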
